A study of Caenorhabditis elegans with 2 samples.

Results

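The chromatin modifier and remodeller genes of *Caenorhabditis elegans* were examined for binding of PROS-1 in late embryos. They were taken by name, as all protein-coding genes whose names start with set-, jmjd-, hda-, swsn-, cec-, chd-, met-, sin-, mys- or cbp-, which gave 75 of 19973 protein-coding genes. PROS-1 is a homeodomain transcription factor, the worm counterpart of Drosophila Prospero. The data are ChIP-seq, in which DNA bound by a protein is recovered and sequenced, of an eGFP-tagged PROS-1 carried on the transgene insertion wgIs500 in strain OP500, which also has the mutation unc-119(tm4063). Whole late embryos of both sexes were pooled, with age given as unknown, and 1 group of 2 biological replicates was measured, so no conditions were compared and no test between conditions exists. A peak in whole embryos cannot be assigned to a cell type, and the tagged protein comes from a transgene in addition to any endogenous protein.

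Histones carry chemical marks that other proteins add, read and remove, and remodelling complexes move nucleosomes along DNA. Genes named set- and met- encode SET domain proteins, many of which methylate histones, and mys- and cbp- genes belong to acetyltransferase families. The hda- genes encode histone deacetylases and the jmjd- genes Jumonji-type demethylases. The cec- genes encode chromodomain proteins, which bind methylated histones. Genes named swsn- encode subunits of the SWI/SNF remodelling complexes, chd- genes encode chromodomain helicases, and sin-3 encodes a scaffold of deacetylase complexes. Roles were given below by name prefix alone, and the activity of each gene was not checked. Genes named set-, met-, mys- and cbp- are called writers, jmjd- and hda- erasers, cec- readers, and the rest remodellers and scaffold.

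PROS-1 peaks lay at the promoters of 8 chromatin genes. In the order of their strength these were cbp-1, set-4, set-16, swsn-7, chd-7, set-20, swsn-4 and met-1. A peak was counted when its summit lay between 1000 bp upstream and 200 bp downstream of any annotated transcript start. It also had to be among the 737 peaks the authors kept by the irreproducible discovery rate (IDR). IDR measures how reproducibly peaks are ranked between sets of data. The deposited list is labelled optimal and was made from both replicates, but which sets of reads were compared is not given. Passing therefore does not mean that a peak was strong in each replicate. These 8 of 75 genes make 10.7% (exact 95% interval 4.72% to 19.9%), where 2.55% of all protein-coding genes had such a peak. The 8 genes were served by 8 different peaks, all upstream of their own start. The interval covers only the counting of genes, since read counts were not analysed here and depth is unknown. The 75 genes were chosen with earlier results of these data known, so their share is a description.

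The DNA under 4 of these summits is shown because cbp-1, set-16 and swsn-7 were the genes found among the strongest regions of both replicates, and set-4 had the strongest peak that was weak in replicate 1. Each line gives the summit base and 50 bases on either side, 5′ to 3′ on the strand of the gene, from the RefSeq sequence of WBcel235 (ce11). They are chrIII:9765605-9765705 (plus strand) at cbp-1, chrIII:13643695-13643795 (plus strand) at set-16, chrII:8028442-8028542 (minus strand) at swsn-7 and chrII:6331554-6331654 (minus strand) at set-4. Capitals mark a match to 1 of the 5 motif types described with the peaks' base composition, and the rest is in lower case.
cbp-1: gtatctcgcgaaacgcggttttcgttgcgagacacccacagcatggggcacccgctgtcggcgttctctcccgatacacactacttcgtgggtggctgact
set-16: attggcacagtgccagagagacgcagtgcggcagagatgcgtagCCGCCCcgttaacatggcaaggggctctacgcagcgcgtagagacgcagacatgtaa
swsn-7: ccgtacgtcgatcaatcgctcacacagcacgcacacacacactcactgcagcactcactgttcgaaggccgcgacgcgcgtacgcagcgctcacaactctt
set-4: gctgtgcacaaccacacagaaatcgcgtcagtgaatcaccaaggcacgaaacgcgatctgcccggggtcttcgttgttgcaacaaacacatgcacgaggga

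The motifs searched on both strands were the GAGA repeat GAGAGAG, the GC-box GGGCGG, the hexamers AAGACG and AAGGCG of the Prospero type, TAATTA and the PHA-4 motif TGTTTGC. Of the 8 summit windows, only that of set-16 held the GC-box, seen above as its reverse complement, and only that of chd-7 held GAGAGAG. None held a Prospero hexamer, TAATTA or TGTTTGC. Among all 400 IDR peaks in promoter windows, windows of the same length held GAGAGAG in 17.2%, the GC-box in 9.0%, a Prospero hexamer in 12.2%, TAATTA in 0.5% and TGTTTGC in 5.0%. Matches of GAGAGAG may overlap each other. No match says only that these letters were not in the window. The windows of the 8 genes were 54.0% ± 5.13 GC (SD, n = 8 peaks), from 45.5% at chd-7 to 59.4% at cbp-1, set-16 and swsn-7. All promoter IDR peaks had 52.4% ± 6.72 (SD, n = 400 peaks). None of the 70 overlapping 32-base words in each of the 8 windows recurred elsewhere in the genome.

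Writers of histone marks made up 5 of the 8 genes and held the 3 highest values. The authors' signal value, a score relative to the control with no stated scale, ran from 26.4 to 127.1 among the IDR peaks, with a median of 36.4. At cbp-1, which encodes the worm CBP/p300 acetyltransferase, the peak had a signal value of 69.6 and rank 59 of 737 (chromosome III, 9765493 to 9765816). The summit lay 854 bp upstream of the nearest cbp-1 start. The non-coding RNA gene R10E11.12 was 507 bp from the summit, and the nearest start of another protein-coding gene, gcc-2, was 3512 bp away. Replicate 1 had a signal value of 15.0 (rank 135) within 100 bp of it, and replicate 2 had 58.9 (rank 50). Both replicates placed the region upstream of cbp-1 among their 737 strongest. The related genes cbp-2 and cbp-3 had no IDR peak. The strongest promoter candidate of cbp-3 in the pooled list had a signal value of 5.55, and cbp-2 had no promoter candidate in the pooled list or in either replicate.

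At set-16, which encodes an MLL-type H3K4 methyltransferase, the signal value was 53.8 and the rank 123 (chromosome III, 13643583 to 13643906). Replicate 1 gave 13.4 (rank 195) and replicate 2 gave 39.0 (rank 172). The summit lay 171 bp upstream of set-16 and 175 bp upstream of the divergent gene drr-2, so the peak cannot be assigned to either gene alone. At set-4, which encodes an H4K20 methyltransferase, the signal value was 56.0 and the rank 112 (chromosome II, 6331442 to 6331765), with the summit 263 bp upstream. Here the replicates stood apart. The matching summit had a signal value of 3.21 and rank 16099 in replicate 1, against 50.6 and rank 74 in replicate 2.

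At set-20, a SET domain gene, the signal value was 42.1 and the rank 265 (chromosome X, 5686130 to 5686453), with the summit 134 bp upstream of the nearest start. Replicate 1 gave 7.12 (rank 1562) and replicate 2 gave 37.9 (rank 182). At met-1, which encodes an H3K36 methyltransferase, the signal value was 33.1 and the rank 481 (chromosome I, 4254022 to 4254345). Its summit, 13 bp upstream of a start, was the closest of the 8 to its gene. As at set-4, replicate 1 was weak at met-1, with 3.88 (rank 10750) against 29.8 (rank 335) in replicate 2. In all, 5 of 39 writer genes had an IDR peak (12.8%, exact 95% interval 4.3% to 27.4%), near the 10.7% of the 75. All protein-coding genes gave 2.55%. Of the 5, 3 were among the 31 set- genes, 1 among the 2 met- genes and 1 among the 3 cbp- genes. None of the 3 mys- genes had one.

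Remodellers supplied the other 3 genes, and all of those peaks lay more than 500 bp from the start. At swsn-7, which encodes a subunit of a PBAF-type SWI/SNF complex, the signal value was 46.9 and the rank 196 (chromosome II, 8028330 to 8028653). The summit was 729 bp upstream and inside the non-coding RNA gene C08B11.11. Replicate 1 gave 10.7 (rank 401) and replicate 2 gave 31.4 (rank 291). Both ranks were within the strongest 737. At swsn-4, which encodes the SWI/SNF ATPase, the signal value was 34.3 and the rank 435 (chromosome IV, 11125258 to 11125581). The summit lay 604 bp upstream of swsn-4 and 558 bp upstream of spo-11, whose start is the nearer. Replicate 1 gave 8.72 (rank 760) and replicate 2 gave 23.5 (rank 572), so replicate 1 fell just outside its strongest 737.

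At chd-7, which encodes a chromodomain helicase, the signal value was 43.7 and the rank 230 (chromosome I, 4699348 to 4699671), with the summit 935 bp upstream and 100 bp from the lincRNA gene linc-91. Replicate 2 gave 42.2 (rank 134). Replicate 1 had no summit within 100 bp, and its nearest, 156 bp away and outside the window, had 13.2 (rank 203). A further and stronger IDR peak lay 2823 bp upstream of chd-7, inside linc-91, with a signal value of 69.4 and rank 60 (chromosome I, 4701236 to 4701559). That one was high in both replicates, at 19.1 (rank 54) in replicate 1 and 49.5 (rank 84) in replicate 2. The sequence within 50 bp of this summit held 9 GAGAGAG matches, against 3 at the nearer chd-7 summit. In all, 3 of the 11 remodeller and scaffold genes had an IDR peak in the window (27.3%, exact 95% interval 6.02% to 61.0%). All protein-coding genes gave 2.55%, and the interval holds the 10.7% of the 75.

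None of the eraser or reader genes among the 75 had an IDR peak in its promoter window. Genes of these kinds with other name prefixes are not in these counts. This was 0 of 16 genes for the jmjd- demethylases and hda- deacetylases, for which the exact 95% interval reaches 20.6%, and 0 of 9 for the cec- chromodomain genes, for which it reaches 33.6%. Both intervals include the 2.55% of all protein-coding genes as well as the 10.7% of the 75. In groups this small the share of all genes would itself give less than 1 gene, so these counts do not set erasers or readers apart. A difference between the roles was not tested. Several of these genes had IDR peaks farther upstream. The highest was 2521 bp upstream of hda-4, a class II deacetylase gene, with a signal value of 54.1 and rank 120 (chromosome X, 16726876 to 16727199). It had 10.1 (rank 486) in replicate 1 and 45.5 (rank 108) in replicate 2, and the hda-4 start was the nearest. Among the readers, cec-4, whose product anchors heterochromatin at the nuclear periphery, had a peak of 30.2 at 1637 bp upstream and 41 bp from the snoRNA gene F32E10.10. The peak of cec-1 had 27.9 at 1114 bp, and that of cec-2 had 27.2 at 1974 bp. Matching summits in replicates 1 and 2 had ranks 1197 and 708 at cec-4 and 468 and 1541 at cec-2. At cec-1 replicate 2 had rank 532, and the nearest summit of replicate 1 was 110 bp away (rank 678). For these 3 cec- genes the nearest protein-coding start was their own. The peaks upstream of set-1 (28.5, at 1459 bp) and set-5 (32.1, at 1940 bp) lay nearer to jhdm-1 and unc-112. They lay in the promoter windows of those genes, 646 bp from jhdm-1 and 372 bp from unc-112, neither of which is among the 75. The set-1 peak had rank 2129 in replicate 1 and rank 1036 in replicate 2. At the set-5 peak neither replicate had a summit within 100 bp. Across the 75 genes, 7 IDR peaks lay outside the window within 3000 bp upstream or in the gene body, and all 7 were upstream. The share of all genes under this search is not given, so the 7 are no result about the chromatin genes.

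**Figure D1:**
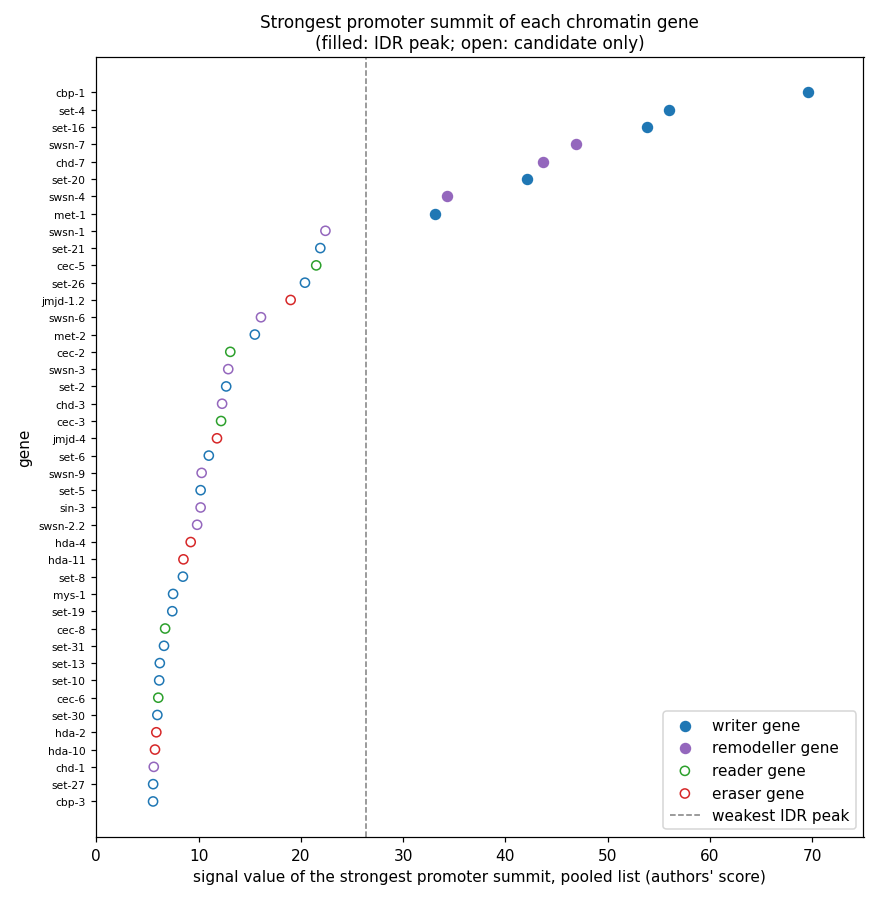
Signal value (authors' score, pooled list) of the strongest promoter summit of each of the 42 chromatin genes with a pooled candidate, coloured by role, with the weakest IDR peak as a dashed line. The 8 genes with an IDR peak (filled) run from 33.1 at met-1 to 69.6 at cbp-1, and the other 34 (open) run from 5.55 at cbp-3 to 22.4 at swsn-1.

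The replicates ranked these promoters differently. The lists have different scales, with the 737th strongest candidate at 8.8 in replicate 1 and at 20.7 in replicate 2, so ranks are compared and not values. When the strongest 737 candidates of 1 replicate stood in for the IDR list, 3 of 75 genes were found in replicate 1 (4.0%, exact 95% interval 0.833% to 11.2%), where all genes gave 2.21%. The interval holds the share of all genes and also the 10.7% found with the IDR list. In replicate 2, 8 of 75 were found (10.7%), where all genes gave 2.37%. The 3 genes of replicate 1, cbp-1, set-16 and swsn-7, were also found in replicate 2. Of all 509 genes with an IDR peak, 56.2% were found in replicate 1 and 79.4% in replicate 2, against 3 and 8 of the 8 chromatin genes. With replicate 1 alone, the chromatin genes are thus not set apart from all genes, and a difference was not tested in any list. Over all candidates, 7 of the 8 summits (87.5%) were matched within 100 bp in both replicates, as were 84.5% of all promoter IDR peaks.

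**Figure D2:**
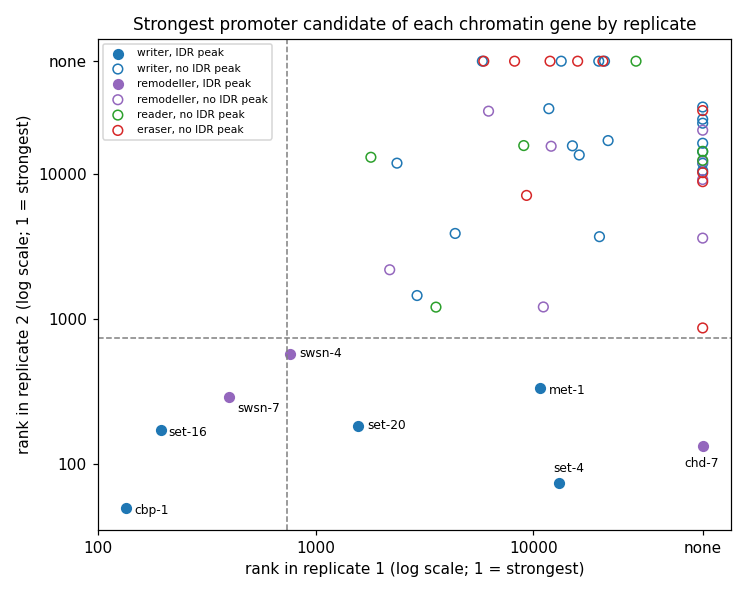
Rank of the strongest promoter candidate of each chromatin gene in replicate 1 (x axis) and replicate 2 (y axis), on log axes where 1 is the strongest, with genes that have no candidate in a replicate at the edge and rank 737 as dashed lines. The strongest candidates of the replicates need not be the same site, and at set-4 replicate 1 is drawn at rank 13164, a summit other than the one matched in the text. cbp-1, set-16 and swsn-7 lie within the strongest 737 of both replicates. set-4 and met-1 lie far down the list of replicate 1, and chd-7 has no candidate of replicate 1 inside its promoter window. A replicate 1 summit of rank 203 lies outside that window, 156 bp from the chd-7 IDR summit.

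Weaker candidates were present at many more of these genes, with the highest share at the remodellers. Among the 5000 strongest pooled candidates, 20 of 75 genes had a promoter summit (26.7%, exact 95% interval 17.1% to 38.1%), where 11.8% of all genes did. By role these were 7 of 11 remodellers (63.6%, 30.8% to 89.1%), 9 of 39 writers (23.1%), 3 of 9 readers (33.3%) and 1 of 16 erasers (6.25%). With any of the 30000 pooled candidates counted, 42 of 75 genes had a summit (56.0%, 44.1% to 67.5%), where 41.9% of all genes did. All 11 remodeller and scaffold genes were among the 42. A candidate list of this length includes regions that did not pass the authors' threshold, and 34 of the 42 genes had such candidates alone. No promoter candidate was found at 22 of the 75 genes in the pooled list or in either replicate. The share of all genes under that rule is not given, so the 22 are no result about the chromatin genes. In the pooled list alone, 33 of the 75 genes and 11600 of all 19973 genes had none.

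**Figure D3:**
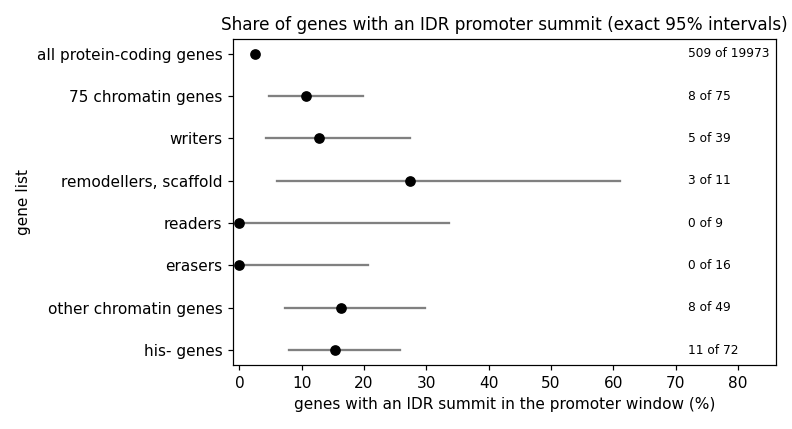
Percentage of genes with an IDR summit in the promoter window (points) with exact 95% binomial intervals (lines), for all protein-coding genes, the 75 chromatin genes and their roles, the other chromatin genes and the his- genes. The chromatin genes stand at 10.7% and all genes at 2.55%, and the intervals of the 4 roles overlap.

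Below the IDR threshold, swsn-1, which encodes a core SWI/SNF subunit, came next with a pooled signal value of 22.4 and rank 1051, 398 bp upstream. Within 100 bp of that summit, replicate 1 had 3.54 (rank 13269) and replicate 2 had 16.6 (rank 1210). Close to it were set-21 with 21.9 (rank 1096) and the chromodomain gene cec-5 with 21.5 (rank 1148). The summit at set-21 was nearer to the start of rpl-7A, 79 bp away, and 13 of its 70 words of 32 bases recurred elsewhere in the genome. At set-26 the pooled value was 20.4 and at the demethylase gene jmjd-1.2 it was 19.0, but the starts of tsr-2 and F29B9.11 were nearer. The remodelling subunit gene swsn-6 followed with 16.1, with the start of perm-3 nearer than its own. met-2, which encodes an H3K9 methyltransferase, had 15.5 at rank 2443, with 6.33 (rank 2364) in replicate 1 and 6.88 (rank 11879) in replicate 2. At met-2 replicate 1 ranked the summit higher than replicate 2 did, the reverse of set-4 and met-1. The pooled candidate of cec-2 (13.1) had no summit of either replicate within 100 bp. The last of the 10 were swsn-3 with 12.9, also without a summit of either replicate within 100 bp, and set-2, which encodes a SET1-type H3K4 methyltransferase, with 12.7 at an internal start.

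Of the 8 peaks, 4 lay over 500 bp from the nearest start of any gene whose window held them, at cbp-1, swsn-7, chd-7 and swsn-4, against 22.2% of the 400 promoter IDR peaks. The peaks at set-16 and swsn-4 were shared with another gene, which is 2 of 8, and 26.8% of the 400 were shared. The median signal value was 45.3 for the 8 and 35.9 for the 400. Of the 8, 6 were at or above the median signal value of the IDR list, 36.4, against 47.8% of the 400. No test was made of these differences, which rest on 8 peaks. By chromosome, 2 of 14 chromatin genes had an IDR peak on chromosome I, where 3.37% of all genes did. The count was 2 of 13 on chromosome II (2.09% of all genes), 2 of 15 on chromosome III (3.45%), 1 of 13 on chromosome IV (2.13%), 0 of 8 on chromosome V (1.44%) and 1 of 12 on chromosome X (3.92%). Chromosome V had the lowest share over all genes, so the 0 of 8 there is no result about the chromatin genes.

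**Figure D4:**
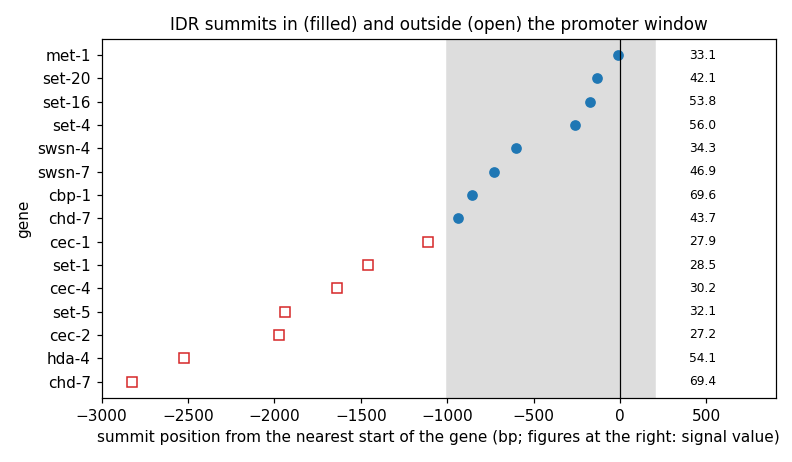
Distance in bp from each IDR summit to the nearest start of its chromatin gene, with negative values upstream. The 8 promoter summits lie from 935 bp to 13 bp upstream, and the 7 other IDR peaks lie from 2823 bp to 1114 bp upstream.

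The length of sequence searched per gene was close to that of all genes. The chromatin genes had a mean window of 1451 bp and 1.56 starts per gene, and all genes 1453 bp and 1.47 starts. Their merged windows covered 108.8 kb and held 7.35 IDR summits per 100 kb, against 1.53 per 100 kb for all genes. Among genes with 1 start, 5 of 49 chromatin genes had a peak (10.2%) against 1.99% of all such genes, and among genes with more starts 3 of 26 (11.5%) against 4.11%.

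Other chromatin genes, which carry other name prefixes, had peaks as well. Of 49 such genes 8 had an IDR peak (16.3%, exact 95% interval 7.32% to 29.7%). The strongest PROS-1 peak of all 737 lay at zfp-1, the homolog of AF10, with a signal value of 127.1, and had rank 4 in replicate 1 and rank 2 in replicate 2. bet-2, a bromodomain gene, had rank 5, with ranks 170 and 3 in the replicates. The PBAF subunit gene pbrm-1 had 63.2 (rank 82), with ranks 145 and 72 in the replicates. The NURF subunit gene nurf-1 had 56.7 (rank 110), with ranks 442 and 87 in the replicates. The peaks of zfp-1, pbrm-1 and nurf-1 counted through internal starts alone, since none was found from the outermost start of its gene. The other 4 were epc-1 (36.2), lin-13 (35.0), lin-40 (31.7) and ruvb-1 (27.5), and the peaks of epc-1 and ruvb-1 were shared with Y111B2A.12 and tofu-1. Matching summits in replicates 1 and 2 had ranks 85 and 1094 at epc-1 and 763 and 492 at lin-40. Replicate 1 was weak at lin-13 (rank 11280, against 332 in replicate 2) and at ruvb-1 (rank 18518, against 701). The histone genes, named his-, had an IDR peak at 11 of 72 genes (15.3%, 7.88% to 25.7%), from 7 summits. Both shares were numerically above the 10.7% of the chromatin genes by prefix, with overlapping intervals, and the differences were not tested. The wider list was chosen with results of these data known, so its share is a description.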

How the data were processed

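PROS-1 binding was measured by ChIP-seq in 2 biological replicates of late embryos. The deposited peak lists in ce11 coordinates were used: the IDR list and the candidates of the pooled data and of each replicate. In these the authors' signal value is a score of enrichment over control, and the deposited −log10 q-value was at least 2.47 in the IDR list. The aligner, peak caller, IDR threshold and the sets of reads that IDR compared are not given in the sources used here. Read totals were not analysed. The 737 IDR peaks were also the 737 strongest pooled candidates, so the 2 lists are not independent. Lists on the older build were not used.

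Summits were assigned to the windows of all protein-coding transcript starts of Ensembl release 115, from 1000 bp upstream to 200 bp downstream. The strongest summit counted. Signal values were ranked within a list only. Intervals are exact Clopper-Pearson (95%) and cover counting of genes only. Genes are not replicates, and no test was made. Window assignment was tested on simulated data. Members and lists were chosen with earlier results of these data known. Named were all members with an IDR peak or among the strongest of either replicate, the next 10 by pooled signal value, and wider-list genes with an IDR peak. Alternatives changed the window, start, assignment, threshold and replicate. The tools were matplotlib 3.10.9, scipy 1.17.1, pandas 2.3.3 and numpy 2.4.6 under Python 3.11.15.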

Additional observations from a re-analysis of the deposited data

How the results depend on the processing

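With a window of 500 bp upstream to 100 bp downstream, 4 chromatin genes had an IDR peak (set-4, set-16, set-20 and met-1), 3 genes of the wider list did, and the share of all genes was 1.83%. With 2000 bp to 500 bp, 13 chromatin genes did and the share of all genes was 3.54%. Without a replicate, the chromatin genes ranged from 3 to 8 and all genes from 2.21% to 2.37%. The count of 3 is from replicate 1 alone. The wider list gave 9 either way, but not the same genes. Of its 8 genes with an IDR peak, 5 remained without replicate 2 and 7 without replicate 1. With outermost starts the wider list gave 5, without nurf-1, pbrm-1 and zfp-1, and all genes 2.3%. With nearest starts within 5000 bp all genes gave 3.23%, and the chromatin genes 12. With only IDR peaks at or above the median signal value of their list, the wider list gave 4, all genes 1.23% and the chromatin genes 6. With peaks in the window of 1 gene, chosen after seeing the data, all genes gave 1.43% and the chromatin genes 6. Among the strongest candidates, replicate 1 gave 1 and 6 chromatin genes with the narrow and the wide window, and replicate 2 gave 4 and 12. No share of all genes is given for these settings, so the counts do not set the chromatin genes apart. The remodellers had 0 with the narrow window and the readers 3 with the wide one. Causes of these changes were not tested. No paired analysis was possible because there is 1 group. Depth is unknown, so a missing peak does not show that binding was absent.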

Other observations

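In the wider chromatin list, some promoter windows held a summit among the strongest 737 of 1 replicate but no IDR peak. The strongest candidate in the window of trr-1 had rank 320 in replicate 1 and rank 2730 in replicate 2. For rbr-2 the ranks were 398 and 1976, and for pcaf-1 they were 552 and 1918. In the opposite direction, lin-53 had rank 619 in replicate 2 with no promoter candidate in replicate 1. At ash-2 and mep-1 the strongest candidates of the replicates were different sites. For ash-2 these lay 604 bp upstream in replicate 1 (rank 373) and 139 bp upstream in replicate 2 (rank 1935). For mep-1 they lay 699 bp upstream (rank 2102) and 270 bp upstream (rank 663). These genes were chosen after their values were seen.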
